A study of Mus musculus with 14 samples.

Results

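The Slc15 genes encode proton-coupled transporters of dipeptides, tripeptides and histidine, and 3 of them, *Slc15a2*, *Slc15a3* and *Slc15a4*, were described here in the left ventricle of the mouse. They were chosen by name with their levels in these libraries already known, so every level and fold change of these genes below is a description and carries no test. They are 3 of the 49315 genes of the deposited count table and 3 of the 5 Slc15 genes in it. All 3 passed the filter on low counts that left 15292 genes in the fit. The other members, *Slc15a1*, the intestinal peptide transporter PEPT1, and *Slc15a5*, an orphan of the family, reached at most 1 count in any library and could not be compared.

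The tissue came from male wild-type mice (WT) and from mice with a knock-in of a gain-of-function change in HCN4, a pacemaker channel of the heart (HCN4F). Mice were operated at 10 to 12 weeks of age, either with a sham procedure (Sham) or with transverse aortic constriction (TAC), which narrows the aorta and loads the left ventricle with pressure. Left ventricles were taken 5 weeks later. There were 4 libraries of WT-Sham, 4 of HCN4F-Sham, 4 of HCN4F-TAC and 2 of WT-TAC, those numbered 2 and 3 in the labels. Further mice with TAC and the wild-type allele were not analysed here. The knock-in is carried in every cell from the germ line and not in the heart alone. It leaves the *Hcn4* transcript in place, so the *Hcn4* level (3.49 to 13.5 CPM) does not check the genotype. Each label also ends in a number whose meaning is not given, and the 4 WT-Sham numbers are all higher than those of the other 10 libraries. Whatever these numbers mark therefore cannot be told apart from the WT-Sham group, on which the *Slc15a2* values below turn. The lowest number belongs to HCN4F-Sham replicate 4.

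Total counts per library ranged from 22309914 to 35210939. CPM, counts per 1000000 counts of the TMM-scaled library, was used for levels of 1 gene across libraries, and CPM per kb of annotated exon for levels of different genes. Where 0 counts are observed, the true count may be up to about 3 (upper 95% limit), which at these depths equalled 0.0859 to 0.137 CPM. Cardiomyocyte markers summed to 59638 to 80546 CPM in every library, and none of the markers of the 10 cell type lists was at 0 in all libraries. The atrial markers summed to 72.8 CPM in HCN4F-TAC replicate 2 against 20.9, 29.2 and 35.8 CPM in the other HCN4F-TAC libraries, 20.1 and 21.9 CPM in WT-TAC and 19.2 to 28.7 CPM in the Sham libraries, and member values without that library are given beside the results it touches. In bulk tissue, fewer cells of a type and less RNA per cell cannot be told apart.

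PEPT2, the product of *Slc15a2*, is a high-affinity transporter of the plasma membrane that brings small peptides and peptide-like drugs into cells down a proton gradient, and is best known from kidney, lung and the choroid plexus. PHT2 (*Slc15a3*) and PHT1 (*Slc15a4*) lie instead in the membrane of endosomes and lysosomes, where they export histidine and peptides from the lumen. Both are found in immune cells, and PHT1 is needed for signalling by endosomal Toll-like receptors through the adaptor TASL and the transcription factor IRF5.

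On the GRCm38 build, *Slc15a2* (ENSMUSG00000022899) lies on the minus strand at chr16:36750177-36784962, *Slc15a3* (ENSMUSG00000024737) on the plus strand at chr19:10839727-10859362 and *Slc15a4* (ENSMUSG00000029416) on the minus strand at chr5:127595664-127632897. All 3 are annotated as protein coding, with 7361, 5491 and 5312 bases of exon. No 50-base window of their transcripts was found in a transcript of another Slc15 gene. Of the windows of *Slc15a2*, 1.05% also lay in transcripts of other genes. For *Slc15a4* this share was 6.87%, and the 1 other gene had at most 2 counts in a library.

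For *Slc15a3* the share was 26.8%, with windows in 2 other genes. The end of *Slc15a3* overlaps the convergent gene *Tmem132a* on the minus strand over 1541 bases. An antisense gene on the minus strand, *AC132402.1*, overlaps *Slc15a3* over 1600 bases and is not among the counted genes. *Tmem132a* had 310 to 657 counts per library. How the counting treated strand is not given in the sources used here, so reads from the shared stretches cannot be told apart, and *Slc15a3* values are uncertain to that extent.

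Start regions from RefSeq on GRCm38.p6 were on hand for 2 of the 3 genes and are shown because these 2 genes differed most in how their levels varied. Each runs from 250 bases before the transcript start to 50 after it, on the minus strand, at chr16:36784913-36785212 for *Slc15a2* and at chr5:127617343-127617642 for *Slc15a4*, inside the annotated gene. Capitals mark the letters TGACG or GGGCGG on either strand.
Slc15a2: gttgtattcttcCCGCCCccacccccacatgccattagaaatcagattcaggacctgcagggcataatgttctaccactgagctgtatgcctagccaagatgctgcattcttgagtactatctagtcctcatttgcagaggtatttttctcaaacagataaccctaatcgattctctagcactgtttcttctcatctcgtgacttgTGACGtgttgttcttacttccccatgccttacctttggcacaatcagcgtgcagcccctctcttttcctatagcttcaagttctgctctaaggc
Slc15a4: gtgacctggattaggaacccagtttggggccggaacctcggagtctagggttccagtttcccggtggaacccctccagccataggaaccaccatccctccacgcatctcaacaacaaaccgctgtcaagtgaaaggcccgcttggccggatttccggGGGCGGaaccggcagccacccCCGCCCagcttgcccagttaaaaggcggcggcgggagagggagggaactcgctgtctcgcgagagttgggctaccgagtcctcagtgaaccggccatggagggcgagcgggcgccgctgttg

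The *Slc15a2* window held 5 CpG dinucleotides and 46.3% G and C, a content above that of 26.2% of the 32851 windows in the table. The *Slc15a4* window held 23 CpG dinucleotides and 64.0% G and C, above 79.7% of the windows. The letters TGACG, the first part of the cAMP response element TGACGTCA, began at position -44 from the start of *Slc15a2* and were absent from the *Slc15a4* window, and 20.8% of all windows held them. The letters GGGCGG were found 1 time near *Slc15a2*, at -238, and 2 times near *Slc15a4*, at -93 and -72, and 35.7% of all windows held them. TGACGTCA itself matched neither window on either strand. The same held for the AP-1 letters TGANTCA, for the EGR letters GCGNGGGCG, for the E-box CACGTG, for TATAAA and CCAAT of the boxes of those names, and for GAGGAA, a core bound by factors of the ETS family. These are matches of letters only, and no binding was measured.

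*Slc15a2* was close to the detection limit in WT-Sham ventricles and higher in each of the other groups. The 4 WT-Sham libraries held 4, 7, 6 and 6 counts, or 0.148, 0.254, 0.229 and 0.196 CPM. The 2 WT-TAC libraries held 33 and 80 counts, or 1.36 and 2.29 CPM. The HCN4F-Sham libraries held 64, 122, 85 and 25 counts, or 2.41, 5.57, 3.07 and 0.755 CPM. The HCN4F-TAC libraries held 38, 70, 44 and 44 counts, or 1.58, 2.30, 1.55 and 1.79 CPM. Every library outside WT-Sham was above every WT-Sham library, while the other groups overlapped one another.

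The order of the group means of *Slc15a2* was HCN4F-Sham with 2.95 ± 2.00 CPM (SD, n = 4), WT-TAC with 1.82 ± 0.661 CPM (SD, n = 2), HCN4F-TAC with 1.81 ± 0.349 CPM (SD, n = 4) and WT-Sham with 0.207 ± 0.0459 CPM (SD, n = 4). The first 3 of these did not differ beyond their spread. The HCN4F-Sham libraries were the most uneven, with 7.38-fold between the highest and the lowest, against 1.48-fold to 1.72-fold inside the other groups. Counting error alone gave 0.488 to 1.11 CPM (exact Poisson 95% interval) for HCN4F-Sham replicate 4 and 4.62 to 6.65 CPM for replicate 2. The interval of replicate 4 still met that of WT-Sham replicate 2, which was 0.102 to 0.523 CPM. These intervals cover counting error only.

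**Figure D1:**
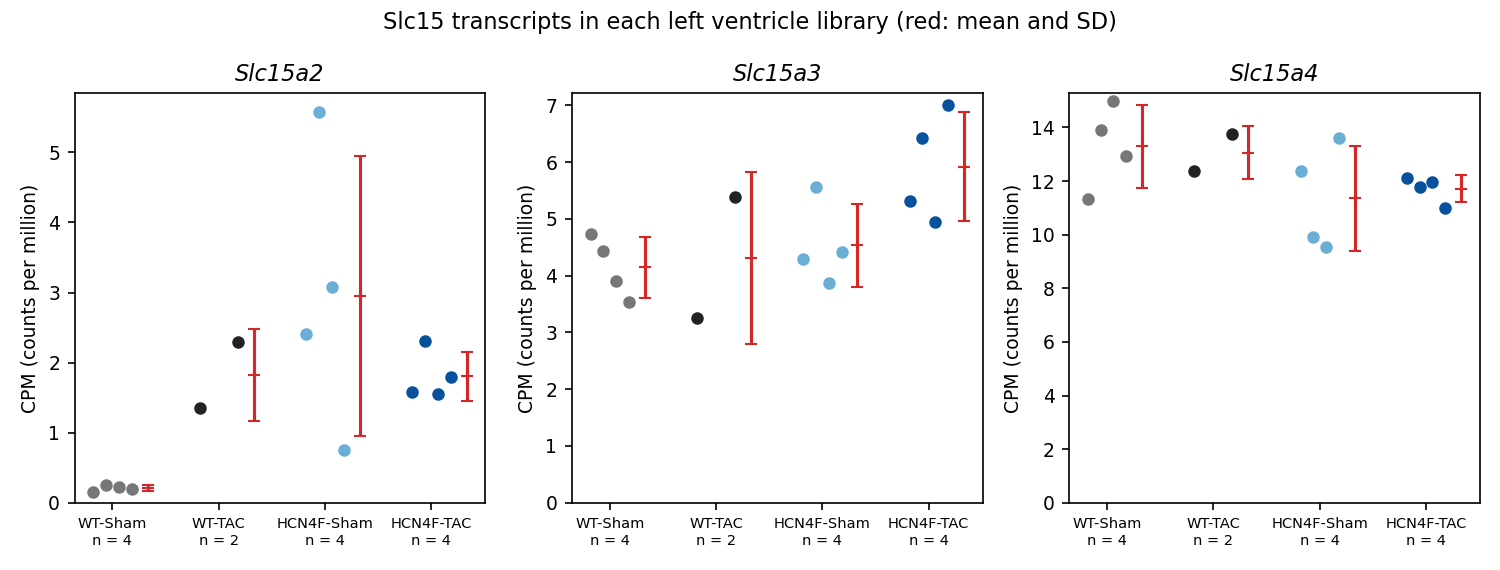
CPM of each gene (y axes from 0, own scale per gene) in the 14 libraries by group, one point per library, with the group mean and SD in red. *Slc15a2* sits at 0.148 to 0.254 CPM in WT-Sham and at 0.755 CPM or more in every other library, while the groups of *Slc15a3* and *Slc15a4* lie at similar heights.

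On the log2 scale of the edgeR fit, *Slc15a2* was higher by 3.14 ± 0.64 (SE) in TAC than in Sham among WT mice, an 8.80-fold difference. In the fit 0.706% of the tested genes passed the call (adjusted p under 0.05 and absolute log2 fold change above 1) in this comparison, and *Slc15a2* was among them. Among HCN4F mice the difference had the other sign, at -0.67 ± 0.41 (SE), and *Slc15a2* was not among the 2.75% of genes that passed. HCN4F exceeded WT by 3.77 ± 0.55 (SE) in Sham, a 13.7-fold difference, and *Slc15a2* was among the 0.209% of genes that passed. In TAC the difference between the genotypes was -0.03 ± 0.51 (SE), and 0.0719% of genes passed, without *Slc15a2*. Since the gene was chosen for these values, nothing is read from these shares. The WT-Sham libraries enter both comparisons in which it passed, so these are not separate observations.

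The call in WT mice was lost without WT-Sham replicate 1, WT-Sham replicate 4 or WT-TAC replicate 3, with log2 fold changes between 2.69 and 3.44 over all libraries left out. The call between the Sham groups held in all 14 alternatives. These reuse the libraries on which the gene was chosen, so nothing is read from this. In HCN4F, TAC against Sham passed in 1 of 14 alternatives, without HCN4F-Sham replicate 4, the lowest of its group, where the log2 fold change was -1.01, and it was -0.18 without HCN4F-Sham replicate 2, the highest. Between the genotypes in TAC the sign of the difference turned with single libraries, with 0.42 without WT-TAC replicate 3, -0.34 without WT-TAC replicate 2, 0.03 without HCN4F-TAC replicate 1 and 0.04 without HCN4F-TAC replicate 3, and with the replicate block it was 0.33. Without HCN4F-TAC replicate 2, the library with atrial transcripts, the differences of *Slc15a2* were -0.82 ± 0.46 (SE) for TAC against Sham in HCN4F and -0.19 ± 0.56 (SE) for HCN4F against WT in TAC.

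The difference between the effects of TAC in the 2 genotypes was -3.81 ± 0.77 (SE) for *Slc15a2* on the log2 scale, lower than for all but 0.0196% of the tested genes. Since the gene was chosen on the group values that enter this difference, nothing is read from its rank. Over all genes, edgeR called 0 interactions at an adjusted p under 0.05, with 1418 genes at an unadjusted p under 0.05, and DESeq2 called 34.

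*Slc15a3*, the endolysosomal carrier PHT2, was found in every library and differed little between groups. Its levels were 4.73, 4.43, 3.90 and 3.53 CPM in WT-Sham and 3.25 and 5.38 CPM in WT-TAC. They were 4.29, 5.57, 3.87 and 4.41 CPM in HCN4F-Sham and 5.31, 6.42, 4.95 and 6.997 CPM in HCN4F-TAC. The HCN4F-TAC libraries lay at the upper end and were all above the WT-Sham libraries, but the groups overlapped in each of the 4 comparisons.

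The group means of *Slc15a3* fell in the order HCN4F-TAC (5.92 ± 0.955 CPM, SD, n = 4), HCN4F-Sham (4.53 ± 0.728 CPM, n = 4), WT-TAC (4.31 ± 1.51 CPM, n = 2) and WT-Sham (4.15 ± 0.536 CPM, n = 4). The last 3 did not differ beyond their spread. On the log2 scale TAC exceeded Sham by 0.39 ± 0.17 (SE) in HCN4F and by 0.08 ± 0.21 (SE) in WT. HCN4F exceeded WT by 0.44 ± 0.21 (SE) in TAC and by 0.12 ± 0.17 (SE) in Sham. None of these 4 differences passed the call. Without HCN4F-TAC replicate 2 the differences in HCN4F and in TAC were 0.34 ± 0.18 and 0.38 ± 0.22 (SE). The overlapping gene *Tmem132a* was higher by 0.48 ± 0.14 (SE) in TAC among HCN4F mice (edgeR adjusted p = 0.0353) and by 0.44 ± 0.17 (SE) among WT mice (adjusted p = 0.147), and its log2 CPM followed that of *Slc15a3* with Pearson's r = 0.67 over the 14 libraries. Its part in the *Slc15a3* values was not tested.

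The 2 WT-TAC libraries differed in *Slc15a3*, and the values against them rest on which one is kept. Without WT-TAC replicate 3 the log2 difference between TAC and Sham in WT was -0.35, and without replicate 2 it was 0.38. The difference between the genotypes in TAC was 0.87 without replicate 3 and 0.14 without replicate 2.

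*Slc15a4*, the endolysosomal carrier PHT1, was the most abundant of the family and the steadiest. Its levels were 11.3, 13.9, 15.0 and 12.9 CPM in WT-Sham and 12.4 and 13.8 CPM in WT-TAC. They were 12.4, 9.90, 9.54 and 13.6 CPM in HCN4F-Sham and 12.1, 11.8, 11.97 and 10.98 CPM in HCN4F-TAC. From the lowest to the highest of the 14 libraries *Slc15a4* spanned 1.57-fold, against 2.16-fold for *Slc15a3* and 37.7-fold for *Slc15a2*.

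The group means of *Slc15a4* were 13.3 ± 1.54 CPM in WT-Sham (SD, n = 4), 13.1 ± 0.992 CPM in WT-TAC (n = 2), 11.7 ± 0.505 CPM in HCN4F-TAC (n = 4) and 11.4 ± 1.96 CPM in HCN4F-Sham (n = 4), and neighbours in this order did not differ beyond their spread except that WT-TAC and HCN4F-TAC did not overlap in their libraries. The log2 difference between TAC and Sham was -0.02 ± 0.14 (SE) in WT and 0.04 ± 0.12 (SE) in HCN4F. The difference between HCN4F and WT was -0.22 ± 0.11 (SE) in Sham and -0.16 ± 0.14 (SE) in TAC. None passed the call. Without HCN4F-TAC replicate 2 the difference between TAC and Sham in HCN4F was 0.03 ± 0.13 (SE) and that between the genotypes in TAC -0.17 ± 0.15 (SE).

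Counted by overlap of libraries, *Slc15a2* stood apart in the same 2 comparisons, TAC against Sham in WT, where the groups of 39.2% of all tested genes did not overlap, and HCN4F against WT in Sham, where those of 8.56% did not. In HCN4F, where 15.1% of genes did not overlap between TAC and Sham, all 3 genes overlapped. Between the genotypes in TAC, where 22.2% of genes did not overlap, this held for *Slc15a4* alone of the 3.

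**Figure D2:**
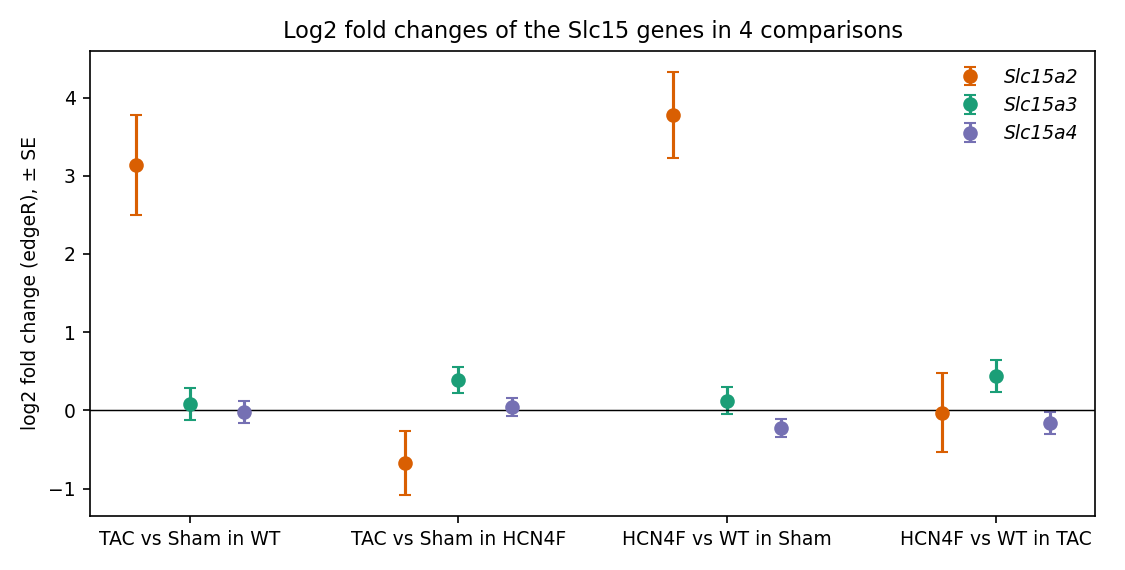
Log2 fold changes of the 3 genes from the edgeR fit (y axis, with SE bars) in the 4 comparisons (x axis). *Slc15a2* lies at 3.14 and 3.77 in the 2 comparisons against WT-Sham and at -0.67 and -0.03 in the other 2, while *Slc15a3* and *Slc15a4* stay between -0.22 and 0.44.

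Scaled for exon length, *Slc15a4* was the leading Slc15 transcript in all 14 libraries. Its mean level was 2.14 to 2.50 CPM per kb over the groups, above 48.0% to 51.9% of the tested genes. *Slc15a3* had 0.755 to 1.08 CPM per kb, above 28.5% to 34.4% of them. *Slc15a2* had 0.0281 CPM per kb in WT-Sham, above 0.570% of the tested genes, and 0.245 to 0.401 CPM per kb in the other groups, above 13.7% to 19.3%. The same order, *Slc15a4* above *Slc15a3* above *Slc15a2*, was found in every library.

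Of the summed length-scaled counts of the 3 genes, *Slc15a2* made up 0.666% to 0.998% in WT-Sham and 5.94% and 8.01% in WT-TAC. It made up 2.96% to 20.8% in HCN4F-Sham and 6.19% to 8.46% in HCN4F-TAC. *Slc15a4* took 70.8% to 79.2% in WT-Sham, 66.7% and 75.0% in WT-TAC, 51.3% to 73.9% in HCN4F-Sham and 57.7% to 67.0% in HCN4F-TAC. The summed level of the 3 genes was similar in all groups, with means of 3.29 ± 0.265 CPM per kb in WT-Sham (SD, n = 4), 3.49 ± 0.552 in WT-TAC (n = 2), 3.37 ± 0.310 in HCN4F-Sham (n = 4) and 3.53 ± 0.146 in HCN4F-TAC (n = 4). The exon length joins all annotated isoforms, so levels per kb are approximate where a shorter isoform is used.

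**Figure D3:**
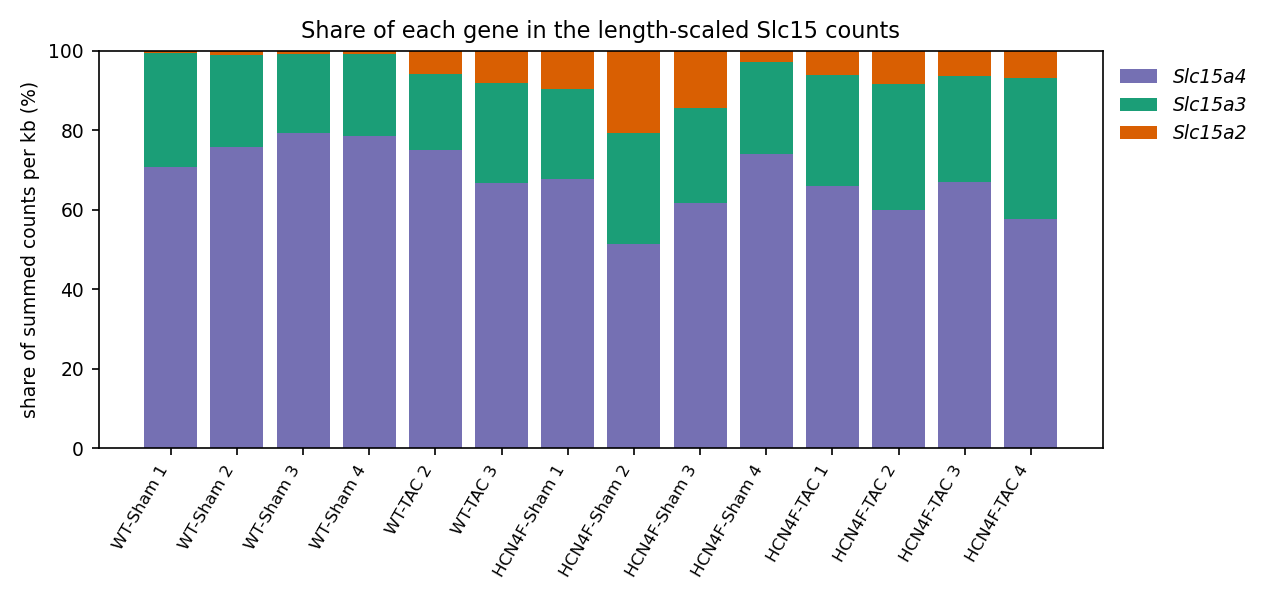
Share of each gene (y axis, percent) in the summed counts per kb of *Slc15a2*, *Slc15a3* and *Slc15a4* for each of the 14 libraries (x axis, ordered by group). The *Slc15a2* part is under 1% in the 4 WT-Sham libraries and reaches 20.8% in HCN4F-Sham replicate 2.

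The spread of *Slc15a2* between libraries of the same group was wide in HCN4F-Sham alone. The standard deviation of its log2 CPM was 1.16 there, 0.25 in WT-Sham, 0.51 in WT-TAC and 0.25 in HCN4F-TAC, and the last 3 were close to those of *Slc15a3*, which were 0.19, 0.51 and 0.23. The pooled standard deviation of its log2 CPM within groups was 0.68, larger than for 97.8% of the 1342 tested genes whose mean CPM was within 1.5-fold of its own. That of *Slc15a3* was 0.26, larger than for 74.0% of 1812 genes of like level. That of *Slc15a4* was 0.17, larger than for 65.6% of 2643 genes of like level.

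Over the 14 libraries *Slc15a2* and *Slc15a4* ran in opposite directions (r = -0.58), as they did within groups after the group means were taken out (r = -0.49). *Slc15a2* and *Slc15a3* had r = 0.42, and *Slc15a3* and *Slc15a4* had r = -0.28. These are descriptions over libraries that differ in group and depth.

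The 5 genes whose log2 CPM was most like that of *Slc15a2* over the 14 libraries were *Igha* (r = 0.91), the constant region of immunoglobulin A, *Egr1* (r = 0.90) and *Ier2* (r = 0.90), immediate early genes, *Clec7a* (r = 0.89), the beta-glucan receptor Dectin-1 of myeloid cells, and *Tcf15* (r = 0.87), a transcription factor of endothelial cells in the heart. They were picked from all tested genes with a mean of at least 1 CPM for this likeness, so their values are a description. *Egr1* was at 18.5, 11.4, 9.56 and 10.7 CPM in WT-Sham and at 187 and 124 CPM in WT-TAC. It was at 109, 206, 202 and 112 CPM in HCN4F-Sham and at 150, 235, 257 and 227 CPM in HCN4F-TAC. As with *Slc15a2*, each library outside WT-Sham was above all of WT-Sham.

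*Igha* was at 1.73 to 2.50 CPM in WT-Sham, 5.22 and 19.1 CPM in WT-TAC, 6.28 to 19.8 CPM in HCN4F-Sham and 8.23 to 31.9 CPM in HCN4F-TAC. *Clec7a* ranged from 0.421 to 0.887 CPM in WT-Sham and from 1.11 to 1.99 CPM in the other libraries. *Ier2* ranged from 13.4 to 18.7 CPM in WT-Sham and from 34.6 to 61.8 CPM in the others. *Tcf15* ranged from 26.4 to 35.5 CPM in WT-Sham and from 37.8 to 68.0 CPM in the others. All 5 genes were lowest in the 4 WT-Sham libraries. With the group means taken out, their correlation with *Slc15a2* was 0.70 for *Igha* and 0.33 to 0.44 for the other 4. By Spearman's rho 2 of the 5 remained among the 5 most like *Slc15a2*, and without HCN4F-TAC replicate 2, 3 did.

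**Figure D4:**
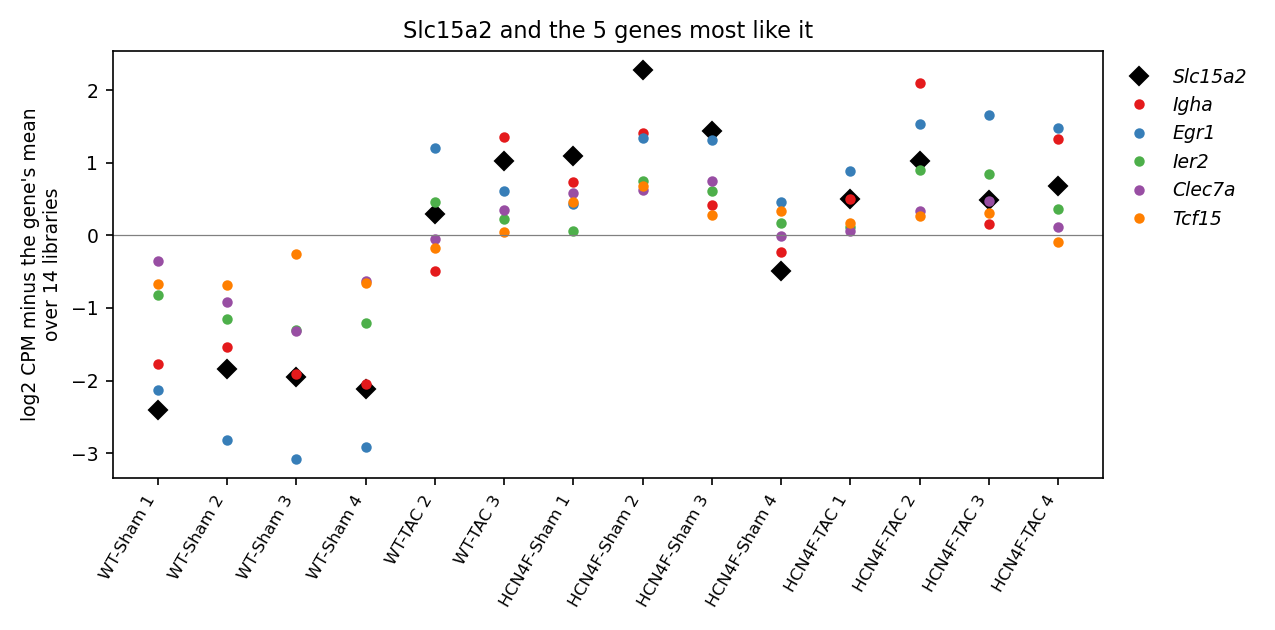
Log2 CPM minus each gene's mean over the 14 libraries (y axis) for *Slc15a2* (black diamonds) and the 5 genes most like it (circles), by library (x axis, ordered by group). All 6 genes lie below 0 in the 4 WT-Sham libraries, and *Slc15a2* is highest in HCN4F-Sham replicate 2.

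For *Slc15a3* the most similar genes were *Marcksl1* (r = 0.93), *Srgap3* (r = 0.89), *Tgfb1* (r = 0.89), which encodes a growth factor of fibrosis, *Mapk7* (r = 0.89), a mitogen-activated kinase, and *D630003M21Rik* (r = 0.89). Unlike those of *Slc15a2*, they kept correlations of 0.79 to 0.90 after the group means were taken out. By Spearman's rho 1 of the 5 remained, and without HCN4F-TAC replicate 2, 4 did. For *Slc15a4* they were *Prdm15* (r = 0.87), *Thap2* (r = 0.86), *Ankrd33b* (r = 0.83), *4933431K23Rik* (r = 0.83) and *Wtap* (r = 0.83), a subunit of the RNA methylation complex. Of these 4 remained by Spearman's rho and 5 without HCN4F-TAC replicate 2.

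In 2 of the 10 lists of cell type markers, every WT-Sham library lay outside the range of the other libraries, as for *Slc15a2*. The neutrophil markers summed to 0.803 to 2.14 CPM in WT-Sham, 3.09 and 4.64 CPM in WT-TAC, 2.74 to 4.23 CPM in HCN4F-Sham and 2.24 to 6.92 CPM in HCN4F-TAC, with WT-Sham the lowest. Of that list 2 of the 6 genes were called higher with TAC in WT, where 0.706% of all tested genes were called. These were *S100a8* (log2 fold change 2.73 ± 0.62, SE, edgeR adjusted p = 0.0248) and *S100a9* (2.91 ± 0.75, adjusted p = 0.0409). In WT-Sham they were near the detection limit, at 0 to 0.181 CPM and 0 to 0.254 CPM. None of the list passed between the Sham groups, where 0.209% of all tested genes did. The cardiomyocyte markers summed to 77646 to 80546 CPM in WT-Sham, 71587 and 71856 CPM in WT-TAC, 68109 to 73894 CPM in HCN4F-Sham and 59638 to 65274 CPM in HCN4F-TAC. None of the 8 was called in any comparison, beside 0.0719% to 2.75% of all tested genes. At the adjusted p alone *Tnni3* (-0.52 ± 0.14, SE, edgeR adjusted p = 0.0427) and *Tnnt2* (-0.39 ± 0.09, adjusted p = 0.0257) were lower in TAC in WT, where 4.54% of all tested genes passed in this way. In HCN4F, where 13.6% of all tested genes passed in this way, the same genes, *Myl2* and *Myh6* were lower in TAC and *Actc1* was higher. All changed by less than 0.59 on the log2 scale. The macrophage markers overlapped between groups, with 256 to 311 CPM in WT-Sham, 255 and 260 CPM in WT-TAC, 272 to 349 CPM in HCN4F-Sham and 256 to 395 CPM in HCN4F-TAC. The Schwann cell and glia markers, by contrast, summed to 7.41 to 13.0 CPM in HCN4F-TAC, 16.3 to 27.8 CPM in HCN4F-Sham, 16.4 to 19.8 CPM in WT-Sham and 13.1 and 13.5 CPM in WT-TAC. Of the 9 tested, 7 were called lower in TAC in HCN4F, where 2.75% of all tested genes were called in either direction. The mesothelial and epicardial markers summed to 15.6 CPM in HCN4F-Sham replicate 2, the library with the highest *Slc15a2*, against 4.93, 6.18 and 6.22 CPM in the other HCN4F-Sham libraries and 4.77 to 11.1 CPM in the remaining groups. Without that library HCN4F exceeded WT in Sham by a log2 fold change of 3.29 for *Slc15a2*. The part of these cell types in the *Slc15a2* values was not tested.

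Beside *Slc15a3*, which was highest in HCN4F-TAC, the fibroblast markers summed to 752 to 1306 CPM in HCN4F-TAC against 603 to 771 CPM in HCN4F-Sham, 620 to 632 CPM in WT-Sham and 582 and 684 CPM in WT-TAC. The markers of B cells and plasmacytoid dendritic cells summed to 23.7 to 33.2 CPM in HCN4F-TAC and 19.3 to 30.1 CPM in the other libraries. Their part in the *Slc15a3* values was not tested either.

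In the 4 comparisons 0.0719% to 2.75% of all tested genes passed the call. Of the 10 nearest tested protein coding genes on both sides of *Slc15a2*, none passed in any comparison, a number near that share. Its direct neighbours *Cd86*, a costimulatory molecule of antigen-presenting cells, and *Eaf2*, an elongation factor partner, had log2 fold changes of -0.36 ± 0.25 and -0.42 ± 0.34 (SE) for TAC against Sham in WT and of -0.17 ± 0.20 and 0.03 ± 0.27 for HCN4F against WT in Sham. Over the 10 genes the median was -0.08 in the first and -0.07 in the second of these comparisons. None of the 10 neighbours of *Slc15a3* or of *Slc15a4* passed the call either. At the adjusted p alone, 13.6% of all tested genes passed for TAC against Sham in HCN4F. In this way 3 of the 10 neighbours of *Slc15a3* passed there, and 1 of the 10 each for *Slc15a2* and *Slc15a4*. Next to *Slc15a3* lay *Tmem132a*, given above, and *Vps37c*, a subunit of the ESCRT-I sorting complex, which was higher by 0.34 ± 0.09 (SE) in TAC in HCN4F (edgeR adjusted p = 0.0196). Next to *Slc15a4* the nearest tested genes were *Stx2* and *Aacs*, 1352 and 2078 kb away, with log2 differences of 0.10 ± 0.09 and 0.56 ± 0.19 (SE) for TAC against Sham in HCN4F.

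Genes that work with these carriers were followed in 6 lists, of which the other Slc15 genes held no tested gene. Of the 99 tested genes in the remaining 5, 2 passed the call, both for TAC against Sham in HCN4F, where 2.75% of all genes passed. These were *Slc1a2*, a glutamate transporter, and *Slc1a4*, a carrier of neutral amino acids, both among 21 tested plasma membrane transporters of amino acids. *Slc1a2* went from 0.279 ± 0.131 CPM in HCN4F-Sham to 0.823 ± 0.226 CPM in HCN4F-TAC (SD, n = 4 each), a log2 fold change of 1.53 ± 0.33 (SE, edgeR adjusted p = 0.00584). *Slc1a4* went from 2.02 ± 0.471 to 4.18 ± 0.606 CPM, a log2 fold change of 1.04 ± 0.17 (SE, edgeR adjusted p = 0.00104), which fell under the fold threshold without HCN4F-Sham replicate 1 (0.89) or HCN4F-TAC replicate 1 (0.94).

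At an adjusted p under 0.05 without regard to fold, 4.54% of all tested genes passed for TAC against Sham in WT, 13.6% for TAC against Sham in HCN4F, 0.471% for HCN4F against WT in Sham and 0.111% for HCN4F against WT in TAC. Of the 21 tested plasma membrane transporters 10 passed in this way in HCN4F, all higher in TAC, and the list median was 0.32 against -0.01 over all tested genes. They included *Slc7a5*, the light chain of the large neutral amino acid transporter (0.90 ± 0.11, SE, edgeR adjusted p = 0.000122), and *Slc38a2*, a carrier of small neutral amino acids (0.89 ± 0.20, adjusted p = 0.0118), named after their values were seen. In WT 3 of the 21 did so, all higher in TAC, with a list median of 0.26 against -0.02. Between the Sham groups 1 gene of the list did so and none between the TAC groups, with list medians of -0.15 and 0.15.

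Other transcripts moved in the same comparison of TAC with Sham in HCN4F. The fibroblast markers *Postn* and *Col1a1*, *Cd79a* of B cells and *Dkk3* of the atrial list were called higher and 7 Schwann cell and glia markers lower, beside 2.75% of all tested genes called. Mitochondrial transcripts took 13.9% to 18.6% of the counts in HCN4F-TAC against 17.1% to 21.4% in HCN4F-Sham. Their part in the list results was not tested. Without HCN4F-TAC replicate 2, 8.73% of all genes passed at the adjusted p alone, with 7 of the 21 plasma membrane transporters, all higher and with a median of 0.29, and the same number of pathway genes, 2, was called.

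The endolysosomal sensing list, with the Toll-like receptors and adaptors that PHT1 serves, had no called gene among 17 tested, and its median log2 fold change was 0.14 in WT and 0.17 in HCN4F for TAC against Sham, and 0.13 in Sham and 0.15 in TAC for HCN4F against WT. The gene of TASL, *5430427O19Rik*, had at most 15 counts in a library and was not among those tested. At the adjusted p alone 2 of the 17 passed in HCN4F, a share near the 13.6% of all genes. These were *Tlr9*, the receptor for unmethylated DNA (0.98 ± 0.31, SE, edgeR adjusted p = 0.0437), and *Irf8*, a transcription factor of myeloid cells (0.51 ± 0.14, adjusted p = 0.0214), both higher in TAC, and without HCN4F-TAC replicate 2 the number was 0. *Slc46a3*, a lysosomal carrier, had the largest log2 fold change of the list at a mean of at least 1 CPM, -0.65 ± 0.22 (SE) for TAC against Sham in HCN4F (edgeR adjusted p = 0.0595).

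No gene was called among 19 tested peptidases and enzymes of dipeptide metabolism, which make or break the substrates of these carriers. *Dpep1*, a membrane dipeptidase, was lower in TAC by log2 fold changes of -0.77 ± 0.15 (SE, edgeR adjusted p = 0.0134) in WT and -0.50 ± 0.12 (adjusted p = 0.00936) in HCN4F, both short of the fold threshold. At the adjusted p alone, which 4.54% of all genes passed in WT, it was the 1 gene lower in TAC in WT, and the aminopeptidase *Lnpep* was the 1 gene higher (0.61 ± 0.14, SE, edgeR adjusted p = 0.0273). In HCN4F, where 13.6% of all genes passed, 4 genes of the list were lower and 1 higher, and the numbers were the same without HCN4F-TAC replicate 2. Beside *Dpep1* the lower ones were the neutral endopeptidase *Mme* (-0.76 ± 0.21, SE, edgeR adjusted p = 0.0245), the gamma-glutamyltransferase *Ggt5* (-0.53 ± 0.13, adjusted p = 0.00995) and *Carns1*, carnosine synthase, which makes a dipeptide carried by PEPT2 (-0.63 ± 0.13, adjusted p = 0.00454). The higher one was *Ace*, the angiotensin-converting enzyme (0.63 ± 0.13, SE, edgeR adjusted p = 0.00372). The list medians lay between -0.05 and 0.03 in the 4 comparisons.

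Among 21 tested lysosomal amino acid and peptide carriers and their partners no gene was called, and the medians lay between -0.01 and 0.02. The largest difference there was that of *Lamtor2*, a subunit of the lysosomal Ragulator complex, at -0.43 ± 0.10 (SE, edgeR adjusted p = 0.0324) in TAC in WT. In HCN4F it was also lower in TAC, at -0.36 ± 0.08 (SE, edgeR adjusted p = 0.00995). Among 21 tested genes of proton supply, mainly subunits of the vacuolar proton pump and sodium-proton exchangers, with the scaffold of PEPT2, none was called and the medians lay between -0.0032 and 0.097. At the adjusted p alone 4 of the 21 passed in HCN4F, all higher in TAC, beside 13.6% of all genes. Without HCN4F-TAC replicate 2 the number was 2. The 4 were subunits or accessory proteins of the pump, *Atp6v1a* (0.33 ± 0.07, SE, edgeR adjusted p = 0.00457), *Atp6v1h* (0.42 ± 0.10, adjusted p = 0.00898), *Atp6v1b2* (0.40 ± 0.11, adjusted p = 0.0191) and *Atp6ap1* (0.27 ± 0.08, adjusted p = 0.0308). The exchanger *Slc9a2* had the largest log2 fold change of that list at a mean of at least 1 CPM, -0.54 ± 0.24 (SE) for HCN4F against WT in TAC (edgeR adjusted p = 0.357).

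**Figure D5:**
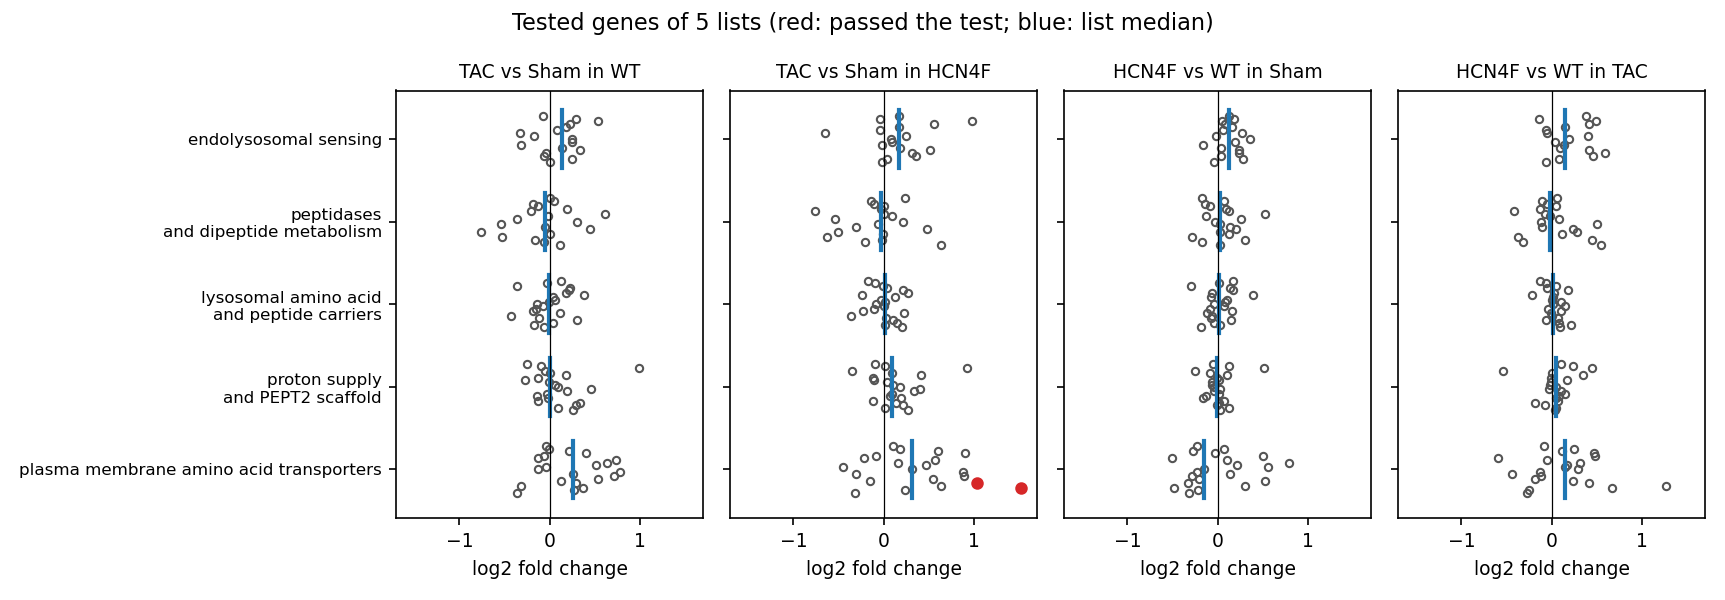
Log2 fold change (x axis) of each tested gene of 5 lists (y axis) in the 4 comparisons, with called genes in red and the list median as a blue bar. The 2 called genes, *Slc1a4* at 1.04 and *Slc1a2* at 1.53, are plasma membrane transporters in HCN4F mice.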

How the data were processed

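Poly(A)-selected RNA of left ventricle was sequenced on an Illumina platform. The authors deposited raw counts per gene for the whole series (49315 genes), with GRCm38 as the build per the submitters' processing notes; the aligner, the counter, the annotation release and the strand setting are not given in the sources used here. Of the columns, 14 were matched to samples and 2 matched none and were not used. 

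Here genes were kept by filterByExpr (15292 of 49315), scaled by TMM, and tested on all 14 libraries in 1 fit with edgeR 4.0.16 (quasi-likelihood, R 4.3.3) and Benjamini-Hochberg adjustment over all genes tested. A gene was called where the adjusted p was under 0.05 and the log2 fold change was above 1 in size, and for the interaction at the adjusted p alone. Log2 CPM used a prior count of 2. The study calls the samples of a group biological replicates. The meaning of the number in each title is not given. Library totals were 22309914 to 35210939. No library was a copy of another of its group (chi-square of 7.27 to 74.8 per gene).

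The members and all gene lists were chosen with earlier results of these data known. Genes named beside the members were the 5 with the highest Pearson's r over the libraries (mean of at least 1 CPM), the nearest tested gene on each side and, of each pathway list, the called genes or else the gene with the largest fold change at a mean of at least 1 CPM; others were named after their values were seen. Positions, exon lengths and shared 50-base windows came from GENCODE mouse release 21 (GRCm38), which held 99.3% of the gene IDs, and start regions from RefSeq on GRCm38.p6. The fit was tested on simulated data. Alternatives were DESeq2 1.42.0, its size factors within edgeR, the 2 compared groups alone, no filter, a mean of at least 1 CPM, a replicate block and each library left out.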

Additional observations from a re-analysis of the deposited data

Results flagged for a closer look

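Among the Slc15 genes and the genes named beside them, 90 groups of 4 libraries were examined for a library far from the other 3, and chance gives such a library in about 1 of 20 groups. There were 2. *Tcf15*, one of the genes most like *Slc15a2*, was at 35.5 CPM in WT-Sham replicate 3 against 26.4 to 27.0 CPM in the other 3 WT-Sham libraries. *Srgap3*, one of the genes most like *Slc15a3*, was at 2.44 CPM in HCN4F-TAC replicate 4 against 1.62 to 1.71 CPM in the other 3 HCN4F-TAC libraries. The 3 Slc15 genes had no such library in any group.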

How the results depend on the processing

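The precision was limited by the 2 libraries of WT-TAC and by the 4 to 7 counts of *Slc15a2* per WT-Sham library. Under the alternatives, 152 log2 fold changes of the 3 genes moved by less than 1 SD between replicates. The 4 that moved by more were those of *Slc15a3* with 1 WT-TAC library left out: TAC against Sham in WT ranged from -0.35 to 0.38 over the libraries left out, and HCN4F against WT in TAC from 0.14 to 0.87. DESeq2 gave *Slc15a2* 3.16 for TAC against Sham in WT and 3.82 for HCN4F against WT in Sham.

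For TAC against Sham in WT, 108 genes were called, 192 with the 2 groups alone, and 7 (without WT-TAC replicate 3) to 91 over the libraries left out. It was 49 without WT-Sham replicate 1 and 47 without WT-Sham replicate 4. For TAC against Sham in HCN4F, 420 were called, 260 at a mean of at least 1 CPM, and 273 (without HCN4F-TAC replicate 2) to 550. For HCN4F against WT in Sham, 32 were called, 74 by DESeq2, 53 with no filter, and 11 (without WT-Sham replicate 2) to 92 (without HCN4F-Sham replicate 1), and leaving out any of the 8 libraries but WT-Sham replicate 1 moved it by over 1.5 times. For HCN4F against WT in TAC, 11 were called, 87 by DESeq2, 48 with no filter, 3 with the 2 groups alone, and 6 (without WT-TAC replicate 2), 7 (without WT-TAC replicate 3) to 158 (without HCN4F-TAC replicate 3). The interaction called 0, 34 by DESeq2, 17 with no filter, and 0 to 78 (without HCN4F-TAC replicate 3), with 1 to 3 when WT-TAC replicate 2, WT-Sham replicate 1, or replicate 2 or 4 of HCN4F-Sham was left out. Of the pathway lists, 2 genes were called for TAC against Sham in HCN4F, 1 at a mean of at least 1 CPM, where *Slc1a2* was not tested. Between the genotypes in TAC 0 were called, 1 with no filter, and 0 to 1 over the libraries left out. Except for that one filter, the cause was not tested.

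Replicate numbers were shared across groups, but same-numbered libraries did not clearly deviate together (r of -0.18 to 0.22 over 18 pairs, 3 of them over 0.1). Of the 8 libraries in each comparison with 4 pairs 2 were most like their own number. Of 4 libraries with a partner, 2 were so for TAC against Sham in WT and 1 for HCN4F against WT in TAC. No pairing was used in the main fit, and what else same-numbered samples share is not given. With a replicate block the calls were 68 for TAC against Sham in WT, 21 for HCN4F against WT in Sham and 7 for HCN4F against WT in TAC. The calls of *Slc15a2* held, from which nothing is read, since the gene was chosen on these values.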
